A study of Bubalus bubalis with 36 samples.

Results

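Back subcutaneous adipose tissue (BSAT) was compared with pericardial adipose tissue (PCAT) in 12 of 36 libraries, 6 from each depot. The libraries were chosen by their depot label, and each BSAT library was paired with the PCAT library of the same animal. The study collected 6 adipose depots from 6 river buffaloes (Bubalus bubalis) to describe how depots differ in their cells, their composition and their gene expression, and RNA sequencing was done on each depot of each animal. All animals had been fattened before slaughter. Animals 1, 2 and 3 were Murrah males aged 19, 20 and 21 months, and animals 4, 5 and 6 were Nili-Ravi females aged 20, 20 and 21 months, so sex and breed cannot be told apart. The other depots were sternum subcutaneous (SSAT), inguinal (IAT), omental (OAT) and perirenal (PRAT) fat. BSAT, SSAT and IAT are subcutaneous (SAT), and OAT, PCAT and PRAT are visceral (VAT).

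Subcutaneous fat of the back develops under the skin of the trunk, whereas pericardial fat lies on the sac around the heart, next to a mesothelial lining and nerves that supply the heart. HOX genes encode homeodomain transcription factors that stand in clusters, and the position of a gene in its cluster follows the level of the body axis at which it is used in the embryo. Adult fat depots keep much of this positional expression. GATA4, TBX5 and TCF21 are used in mesenchyme of the heart region, and TBX15 and EN1 in mesenchyme under the trunk skin.

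The values were the FPKM (fragments per kilobase of gene model, scaled to the mapped fragments of the library) that the authors deposited, and read depth per gene model is not known from them. FPKM summed to 813944 to 888101 in BSAT libraries and 796645 to 866534 in PCAT libraries, and 16790 to 17262 gene models stood above 0.1 FPKM in BSAT libraries, against 16875 to 17510 in PCAT libraries. Several libraries stood apart by their markers. BSAT 1 had a summed 2852 FPKM over 25 skeletal muscle genes, whereas the other BSAT libraries had at most 121 FPKM and PCAT libraries at most 100.6 FPKM. BSAT 3 had the lowest collagen sum among BSAT libraries (18586 FPKM, the others 90595 to 174602 FPKM) and the highest endothelial sum. PCAT 2 and PCAT 4 had summed mesothelial levels of 3265 and 4492 FPKM, and the other 4 PCAT libraries had 237 to 722 FPKM. PCAT 4 also had the lowest sum of fat cell genes. Since whole tissue was sequenced, fewer cells of a type and less RNA per cell cannot be told apart anywhere below.

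The libraries of both depots carried the markers of fat. None of 8 fat cell genes (ADIPOQ, FABP4, CIDEC, LIPE, PLIN4, LPL, PPARG and CEBPA) passed the test, and their means were 234 to 760 FPKM in BSAT and 250 to 1477 FPKM in PCAT. ADIPOQ, the hormone adiponectin, had 156 to 1333 FPKM in BSAT (median 771) and 47.2 to 2257 FPKM in PCAT (median 1880). The groups overlapped, with PCAT 4 lowest of all 12 libraries.

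Of 17688 gene models with an average above 0.1 FPKM, 324 (1.83%) were higher in BSAT and 596 (3.37%) were higher in PCAT at an adjusted p under 0.05, so 5.2% were called in either direction. The test was limma on log2(FPKM + 0.1) with the animal as a block, and a log2 difference is BSAT minus PCAT on that scale, which understates the change of low genes. At the threshold the study used (unadjusted p under 0.05 and an absolute log2 difference of at least 1.5), 216 (1.22%) were higher in BSAT and 384 (2.17%) higher in PCAT in this limma fit. The study applied it to another test (DESeq2), to transcripts averaging at least 10 FPKM and to SAT against VAT, so its counts are not comparable. The difference had the same sign in all 6 animals for 902 of the 920 calls. Since the calls were selected on these same 6 differences, a shared sign was likely in advance and is no separate support. The median log2 difference of all gene models was -0.06. Calls higher in BSAT made up 35.2% of all calls, 44.9% after quantile normalization and 28.0% on the TPM scale. The counts changed when 1 animal was left out. Calls higher in BSAT numbered 141, 139, 354, 287, 186 and 165 without animals 1, 2, 3, 4, 5 and 6 in turn. Calls higher in PCAT numbered 264, 284, 647, 550, 358 and 347 in the same order. A fit to 5 animals also has less power, and the reasons for the changes were not tested. Without animals 2 and 4 together, whose PCAT libraries were rich in mesothelial genes, 105 gene models were higher in BSAT and 240 higher in PCAT. Without animals 1 and 2 together, 31 were higher in BSAT and 64 higher in PCAT. Of all 17688 gene models, 785 (4.44%) did not overlap between the depots, and 526 of the 920 calls did not. Lack of overlap, given below for single genes, is no separate support, because calls were selected on the same values. Means below carry the SD over the 6 libraries of a depot.

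**Figure D1:**
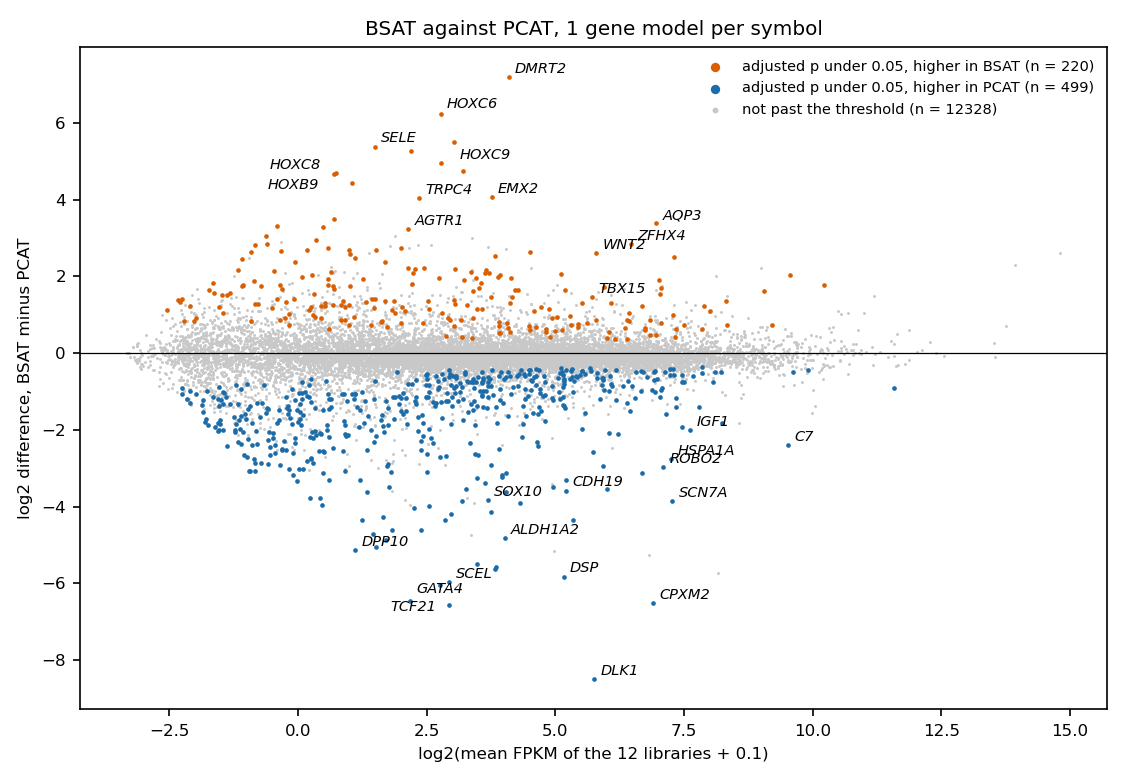
Log2 difference BSAT minus PCAT (y axis) against the log2 mean FPKM of the 12 libraries (x axis), 1 point per gene symbol, with points past the threshold in orange (higher in BSAT, 220 symbols) and blue (higher in PCAT, 499 symbols). DMRT2 and HOX genes were the farthest above 0, and DLK1, TCF21, CPXM2 and GATA4 the farthest below, where the height of a gene listed at 0 in all libraries of a depot depends on the 0.1 added before the logarithm.

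HOX genes formed the most uniform group. Of 39 HOX symbols looked for, 27 were in the table and 23 were tested, and 22 of these were higher in BSAT, against 1.83% of all gene models, with none higher in PCAT. Their median log2 difference was 2.64, against -0.06 over all gene models. Summed over the HOX genes, BSAT libraries had 112 to 149.6 FPKM and PCAT libraries 26.6 to 47.7 FPKM. Genes of paralog groups 6 to 10, which pattern the trunk and more posterior levels, were all called (14 of 14), and 12 of the 14 had a mean under 0.5 FPKM in PCAT. HOXC6, a trunk gene, had 7.76 to 21.3 FPKM in BSAT (median 11.3) and 0 to 0.545 FPKM in PCAT (median 0), with 4 PCAT libraries listed at 0 (log2 difference 6.24 ± 0.46 SE, adjusted p = 0.000745). HOXC9 had 11.3 to 20.1 FPKM in BSAT (median 15.8) and 0 to 1.05 FPKM in PCAT (median 0.321) (log2 difference 5.49 ± 0.51 SE, adjusted p = 0.00201). Neither gene overlapped between the depots. HOXA9 had 3.86 ± 1.08 FPKM in BSAT and 0.0813 ± 0.0440 FPKM in PCAT (log2 difference 4.44 ± 0.18 SE, adjusted p = 0.000109), HOXC8 3.12 ± 1.45 FPKM in BSAT and 0.0232 ± 0.0567 FPKM in PCAT and HOXB9 3.02 ± 0.859 FPKM in BSAT and 0.0302 ± 0.0739 FPKM in PCAT, and 5 of 6 PCAT libraries were listed at 0 for each of HOXC8 and HOXB9. HOXD8 remained measurable in every PCAT library, with 4.43 to 11.2 FPKM in BSAT (median 6.41) and 0.434 to 1.49 FPKM in PCAT (median 0.957) (log2 difference 2.74 ± 0.14 SE, adjusted p = 0.000301).

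Genes of paralog groups 1 to 5, which pattern the hindbrain, neck and anterior trunk, were called in 8 of 9 cases and differed less, with a median log2 difference of 1.57, against 2.79 for groups 6 to 10, and 4 of the 9 had a mean under 0.5 FPKM in PCAT. HOXB3 had the smallest called difference, with 23.8 to 33.1 FPKM in BSAT (median 26.3) and 12.2 to 26.7 FPKM in PCAT (median 16.1) (log2 difference 0.70 ± 0.13 SE, adjusted p = 0.0268), and its groups overlapped. HOXD4 was abundant in both depots, at 27.7 ± 7.0 FPKM in BSAT and 7.41 ± 2.65 FPKM in PCAT (log2 difference 1.95 ± 0.30 SE, adjusted p = 0.0129), and HOXA5, used at the neck and upper trunk, had 3.36 ± 0.961 FPKM in BSAT and 0.422 ± 0.0807 FPKM in PCAT (log2 difference 2.70 ± 0.22 SE, adjusted p = 0.00119). Called HOX genes numbered 17 to 21 when 1 animal was left out, 9 without animals 1 and 2 together and 12 without animals 2 and 4 together. HOXB3 missed the threshold without animal 2, 5 or 6 (adjusted p = 0.0622 to 0.0887), HOXB8 without animal 1, 2, 4 or 6 (adjusted p = 0.0521 to 0.0686), HOXC10 without animal 1, 2, 3, 5 or 6 (adjusted p = 0.0626 to 0.11) and HOXD10 without animal 2 (adjusted p = 0.0511), and the last 3 had means under 0.5 FPKM in both depots. HOXC4 also missed it without animal 2 or 5. Of 8 HOX cofactors tested, 2 were higher in PCAT, against 3.37% of all gene models, and none was higher in BSAT. Without animal 1, 2, 3 or 6 the count was 1, and without animal 3 another was higher in BSAT. One of them, MEIS2, had 4.02 ± 0.471 FPKM in BSAT and 14.3 ± 4.64 FPKM in PCAT (log2 difference -1.75 ± 0.18 SE, adjusted p = 0.00252).

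**Figure D2:**
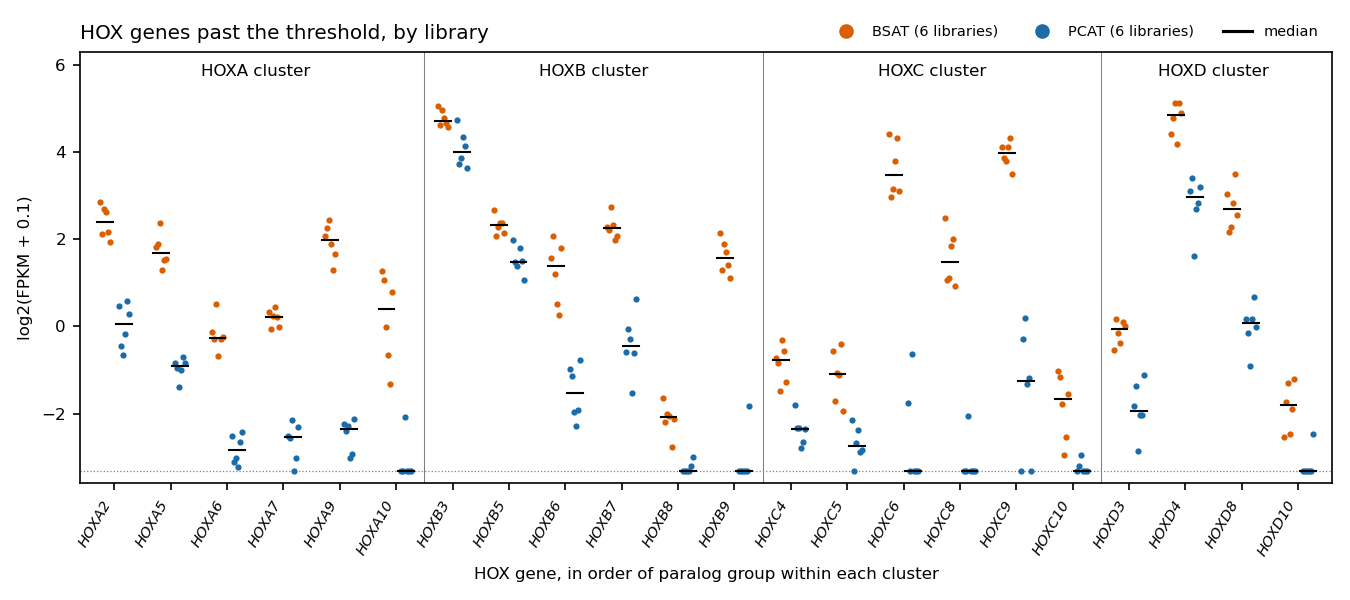
Level of each of the 22 called HOX genes as log2(FPKM + 0.1) in each of 6 BSAT (orange) and 6 PCAT (blue) libraries, in order of paralog group within each cluster, with black bars at the medians and a dotted line at 0 FPKM. The PCAT medians lay under 1 FPKM for all genes shown except HOXB3, HOXB5 and HOXD4, which averaged 17.4, 2.86 and 7.41 FPKM in PCAT.

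Other transcription factors of limb and trunk mesenchyme were higher in BSAT in 8 of 35 cases tested and higher in PCAT in 3, against 1.83% and 3.37% of all gene models, with a median log2 difference of 0.61. Without animals 2 and 4 together the counts were 4 and 3, and without animals 1 and 2 together they were 1 and 2. DMRT2, which acts in the somite derivatives of the trunk, had the largest difference of all genes higher in BSAT, with 16.7 to 57.2 FPKM in BSAT (median 28.6) and 0 to 0.688 FPKM in PCAT (median 0.0816) (log2 difference 7.20 ± 0.32 SE, adjusted p = 0.000138). EMX2, a homeodomain factor, had 17.3 to 34.6 FPKM in BSAT (median 24.6) and 0.265 to 3.99 FPKM in PCAT (median 1.5) (log2 difference 4.08 ± 0.53 SE, adjusted p = 0.00751). Neither overlapped. TBX15, a T-box factor of trunk dermis and subcutaneous fat, was high in both depots but higher in BSAT, with 62.7 to 84.6 FPKM in BSAT (median 78.1) and 19.2 to 33.2 FPKM in PCAT (median 30.3) (log2 difference 1.46 ± 0.15 SE, adjusted p = 0.00255). SHOX2, a limb factor, had 23.2 ± 4.29 FPKM in BSAT and 6.83 ± 5.47 FPKM in PCAT (log2 difference 2.03 ± 0.27 SE, adjusted p = 0.00844), and PCAT 1 alone reached into the BSAT range. TWIST1, a basic helix-loop-helix factor of mesenchyme, differed by 1.09 (adjusted p = 0.00487). EN1, the engrailed factor of trunk dermis, had 14.7 to 28.0 FPKM in BSAT (median 20.9) and 2.47 to 11.7 FPKM in PCAT (median 4.17) (log2 difference 2.1 ± 0.34 SE, adjusted p = 0.0164), without overlap, and missed the threshold without animal 1, 2 or 5 (adjusted p = 0.0514 to 0.0632). Other calls higher in BSAT were IRX2 (log2 difference 2.46) and EBF3 (0.61), and EBF3 missed the threshold when any animal was left out (adjusted p = 0.0507 to 0.0805). ZFHX4, a large zinc finger and homeodomain protein outside this list, had 123 to 205 FPKM in BSAT (median 149) and 15.5 to 24.9 FPKM in PCAT (median 22.0) (log2 difference 2.85 ± 0.18 SE, adjusted p = 0.000518).

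Factors of the heart and visceral mesoderm ran the other way, with 7 of 22 higher in PCAT and 1 higher in BSAT, against 3.37% and 1.83% of all gene models, and 3 to 7 were higher in PCAT when 1 animal was left out. Without animals 2 and 4 together, 4 were higher in PCAT and none was higher in BSAT, and without animals 1 and 2 together 3 were higher in PCAT. WT1 and BNC1, among the 7, are also in the mesothelial list, whose sum was highest in PCAT 2 and PCAT 4. GATA4, a zinc finger factor needed for the developing heart and epicardium, was listed at 0 in every BSAT library and had 6.50 to 11.3 FPKM in PCAT (median 9.04, adjusted p = 5.98e-06). TCF21, a basic helix-loop-helix factor of epicardial and visceral mesenchyme, had 0 to 0.230 FPKM in BSAT (median 0.0268) and 9.51 to 21.9 FPKM in PCAT (median 14.5) (log2 difference -6.57 ± 0.16 SE, adjusted p = 5.98e-06). Both genes separated the depots completely, with little spread among PCAT libraries. LHX2, a LIM homeodomain factor, was also listed at 0 in all BSAT libraries and had 0.176 to 1.33 FPKM in PCAT (adjusted p = 0.00308). TFAP2B had 0.0390 ± 0.0685 FPKM in BSAT and 0.416 ± 0.209 FPKM in PCAT (log2 difference -1.92 ± 0.30 SE, adjusted p = 0.0150) and missed the threshold without animal 2 or 6 (adjusted p = 0.0505 to 0.0538). WT1, BNC1 and SMARCD3 were the other calls higher in PCAT, and each was lost without some animals. WT1 missed the threshold without animal 1, 2 or 6 (adjusted p = 0.0517 to 0.0678), BNC1 without animal 1, 2, 3, 4 or 6 (adjusted p = 0.0822 to 0.126) and SMARCD3 without animal 1, 2, 3, 5 or 6 (adjusted p = 0.0661 to 0.118). TBX3, the call higher in BSAT, had 9.97 ± 5.61 FPKM in BSAT and 4.94 ± 1.4 FPKM in PCAT (log2 difference 0.90 ± 0.19 SE, adjusted p = 0.0438), overlapped between depots and missed the threshold without animal 1, 2, 3 or 6 (adjusted p = 0.0715 to 0.138).

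TBX5, the T-box factor of the heart and the forelimb, stood in the limb list but was higher in PCAT, with 0.964 to 1.87 FPKM in BSAT (median 1.43) and 5.48 to 13.9 FPKM in PCAT (median 8.60) (log2 difference -2.52 ± 0.23 SE, adjusted p = 0.00199). SIX2, another factor of that list, had 0.321 to 3.46 FPKM in BSAT (median 0.913) and 7.73 to 11.8 FPKM in PCAT (median 9.85) (log2 difference -3.11 ± 0.44 SE, adjusted p = 0.0106). Neither overlapped, and both were past the threshold without any 1 animal. EBF2, which also acts in fat cell precursors, had 7.45 ± 0.559 FPKM in BSAT and 15.4 ± 4.12 FPKM in PCAT (log2 difference -1.0 ± 0.16 SE, adjusted p = 0.0144), and missed the threshold without animal 1 (adjusted p = 0.0559).

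**Figure D3:**
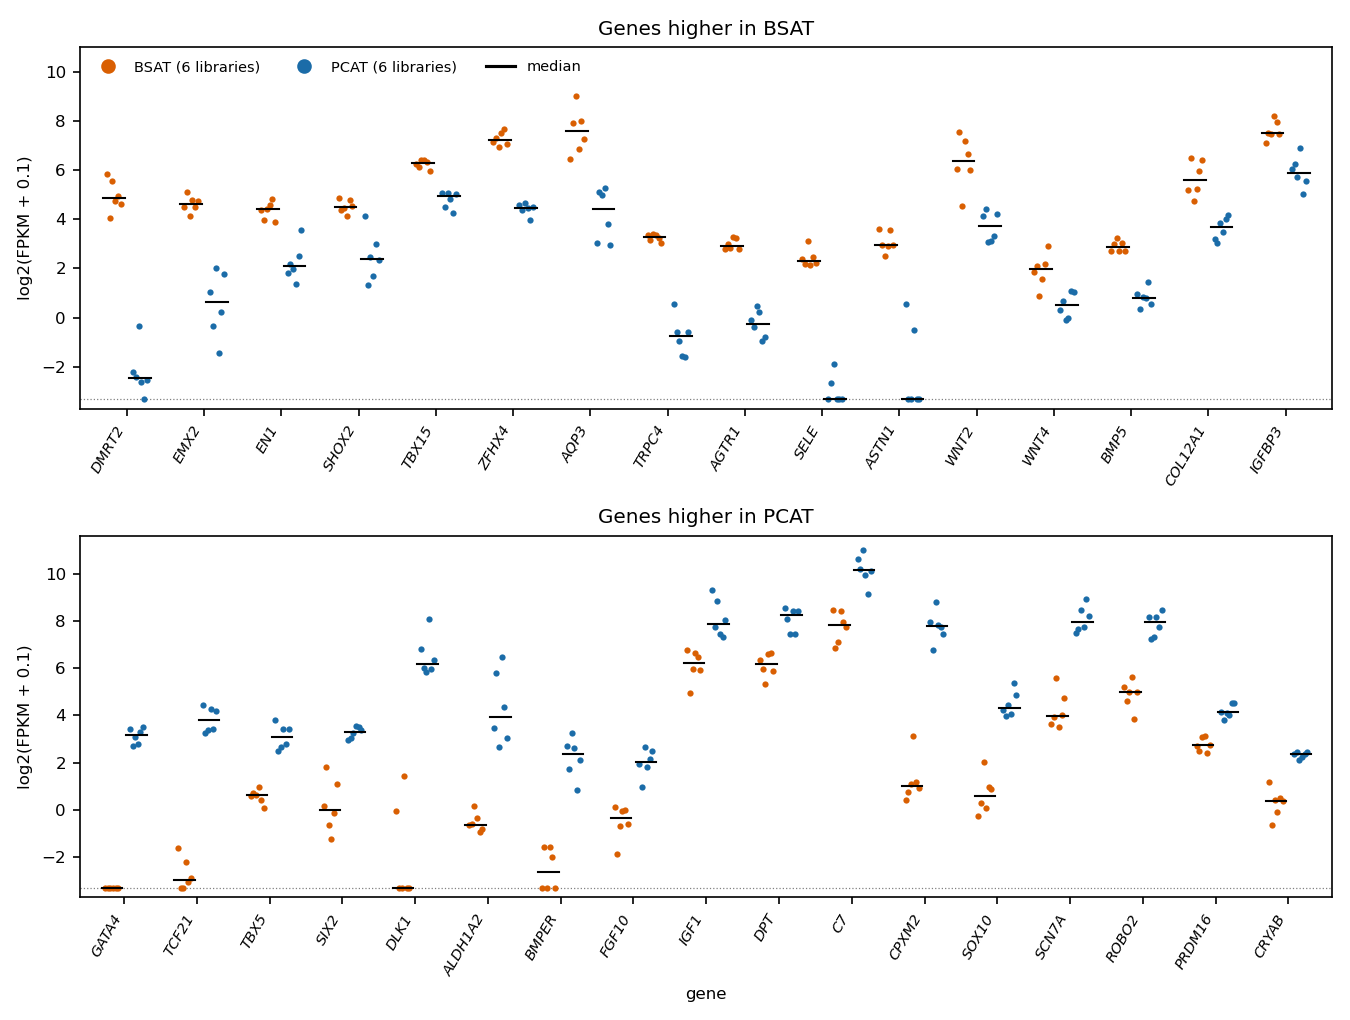
Levels of 16 genes higher in BSAT (upper panel) and 17 genes higher in PCAT (lower panel) as log2(FPKM + 0.1) in the 6 BSAT (orange) and 6 PCAT (blue) libraries, with black bars at the medians and a dotted line at 0 FPKM. GATA4 lay on the line in all 6 BSAT libraries, and for SHOX2 1 PCAT library reached into the BSAT range.

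DLK1, an imprinted gene whose membrane protein holds back fat cell differentiation, had the largest difference of all genes higher in PCAT. It had 0 to 2.58 FPKM in BSAT (median 0) and 57.5 to 269 FPKM in PCAT (median 72.6), with 4 BSAT libraries listed at 0 (log2 difference -8.50 ± 0.47 SE, adjusted p = 0.000374). Of 14 imprinted growth genes tested, DLK1 and PLAGL1 were higher in PCAT (14.3%) and GRB10 was higher in BSAT (7.14%). The shares over all gene models were 3.37% and 1.83%, and the median log2 difference of the list was -0.14. PLAGL1, a zinc finger factor, had 135 ± 18.7 FPKM in BSAT and 227 ± 37.3 FPKM in PCAT (log2 difference -0.74 ± 0.08 SE, adjusted p = 0.00417). GRB10, an adaptor that dampens insulin and IGF receptor signals, had 168 ± 40.3 FPKM in BSAT and 96.3 ± 14.9 FPKM in PCAT (log2 difference 0.78 ± 0.13 SE, adjusted p = 0.0184) and missed the threshold without animal 1, 2 or 6 (adjusted p = 0.0563 to 0.0713).

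Among the 15 largest rises in BSAT of genes averaging at least 1 FPKM, those that were not transcription factors encoded membrane and signalling proteins. SELE, the adhesion molecule E-selectin of activated endothelium, had 4.32 to 8.56 FPKM in BSAT (median 4.79) and 0 to 0.170 FPKM in PCAT (median 0), and 4 PCAT libraries were listed at 0 (log2 difference 5.38 ± 0.17 SE, adjusted p = 2.67e-05). It was the only call among 22 endothelial genes tested (4.55%, against 1.83% of all gene models), and their median log2 difference was 0.15. BSAT 3 was highest for SELE and for the endothelial sum, and SELE passed without animal 3 as well (adjusted p = 0.000342). AQP3, a channel for water and glycerol, was the most abundant of the 15, with 87.0 to 511 FPKM in BSAT (median 196) and 7.66 to 38.8 FPKM in PCAT (median 22.7) (log2 difference 3.38 ± 0.36 SE, adjusted p = 0.00345). TRPC4, a cation channel, had 7.96 to 10.5 FPKM in BSAT (median 9.67) and 0.227 to 1.37 FPKM in PCAT (median 0.492) (log2 difference 4.04 ± 0.29 SE, adjusted p = 0.000714). None of these 3 genes overlapped between depots. ASTN1, a membrane protein known from migrating neurons, had 8.65 ± 2.60 FPKM in BSAT and 0.330 ± 0.563 FPKM in PCAT (log2 difference 5.28 ± 0.56 SE, adjusted p = 0.00319), and CRB1, a cell polarity protein, had 13.3 ± 11.9 FPKM in BSAT and 0.162 ± 0.140 FPKM in PCAT with a wide spread among BSAT libraries (log2 difference 4.95 ± 0.67 SE, adjusted p = 0.00886). TMC1, a channel subunit known from hair cells of the ear, differed by 4.74 (adjusted p = 0.00708) although PCAT 2 had 8.23 FPKM, above 2 of the BSAT libraries. SLC35F3, a solute carrier, and GLRA1, a glycine receptor subunit, differed by 3.50 and 3.29. SLC35F3 missed the threshold without animal 1, 2, 5 or 6 (adjusted p = 0.0624 to 0.0723) and GLRA1 without animal 1, 2, 3 or 5 (adjusted p = 0.0530 to 0.0877). AGTR1, the angiotensin II receptor, was outside the 15, with 6.71 to 9.54 FPKM in BSAT (median 7.34) and 0.423 to 1.29 FPKM in PCAT (median 0.742) (log2 difference 3.23 ± 0.24 SE, adjusted p = 0.000714).

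Among the 15 largest falls, CPXM2, a secreted carboxypeptidase-like protein, was the most abundant in PCAT. It had 1.23 to 8.57 FPKM in BSAT (median 1.90) and 108 to 439 FPKM in PCAT (median 222) (log2 difference -6.52 ± 0.37 SE, adjusted p = 0.000473). DPP10, a dipeptidase-like partner of potassium channels, was listed at 0 in all BSAT libraries and had 1.90 to 10.2 FPKM in PCAT (adjusted p = 0.000518). LAMA1, a laminin chain of basement membranes, had 0.219 ± 0.189 FPKM in BSAT and 6.69 ± 2.79 FPKM in PCAT (log2 difference -4.62 ± 0.30 SE, adjusted p = 0.000518). GRB14, an adaptor that inhibits the insulin receptor, had 0.0106 ± 0.0165 FPKM in BSAT and 5.48 ± 4.38 FPKM in PCAT (log2 difference -5.07 ± 0.58 SE, adjusted p = 0.00440), and was lowest among PCAT libraries in PCAT 4, at 0.316 FPKM. TMEM132C and ELMOD1 differed by -6.04 and -4.60. SCEL, a protein of cornified and lining epithelia, had 0.370 ± 0.724 FPKM in BSAT and 14.8 ± 7.5 FPKM in PCAT (log2 difference -5.97 ± 0.42 SE, adjusted p = 0.000634). DSP, the desmosome protein desmoplakin, and CADPS, a protein of vesicle release, varied widely among PCAT libraries, at 137 and 221 FPKM for DSP in PCAT 2 and PCAT 4 and at most 31.7 FPKM in the other 4. DSP missed the threshold without animal 1 or 2 (adjusted p = 0.0595 to 0.0654). Gene models named WT1-B and WT1 both carried the Wilms tumour factor's name, and reads shared between them would make either value uncertain. WT1-B had 0 to 0.231 FPKM in BSAT (median 0) and 0.978 to 19.9 FPKM in PCAT (median 2.76) (log2 difference -4.86 ± 0.46 SE, adjusted p = 0.00217).

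Genes of Schwann cells and nerve sheath were higher in PCAT in 10 of 18 cases tested, against 3.37% of all gene models, and none was higher in BSAT, with a median log2 difference of -1.45. Their summed FPKM was 197 to 260.4 in BSAT and 497 to 1080 in PCAT, without overlap, and no member was at 0 throughout a depot. SOX10, the factor that specifies Schwann cells, had 0.746 to 4.03 FPKM in BSAT (median 1.42) and 15.7 to 41.5 FPKM in PCAT (median 20.0) (log2 difference -3.83 ± 0.27 SE, adjusted p = 0.000696). CDH19, a cadherin of Schwann cell precursors, had 3.57 to 9.5 FPKM in BSAT (median 5.05) and 35.4 to 128 FPKM in PCAT (median 59.2) (log2 difference -3.58 ± 0.23 SE, adjusted p = 0.000518). SCN7A, a sodium channel of non-myelinating Schwann cells, had 11.3 to 47.6 FPKM in BSAT (median 15.4) and 182 to 488 FPKM in PCAT (median 252) (log2 difference -3.85 ± 0.24 SE, adjusted p = 0.000518). In each of these 3 genes the highest BSAT library was BSAT 3, and it remained under all PCAT libraries. FOXD3, a neural crest factor, L1CAM, an adhesion molecule of axons and glia, and ERBB3, the neuregulin receptor of Schwann cells, differed by -2.37, -1.72 and -1.06. The myelin genes PMP22 and MBP did not pass (log2 difference 0.21, adjusted p = 0.503 and -0.29, adjusted p = 0.660). GFRA3 missed the threshold without animal 1, 2, 4 or 6 (adjusted p = 0.0562 to 0.0956) and CLDN1, a tight junction protein also in the mesothelial list, without animal 1, 2 or 3 (adjusted p = 0.0530 to 0.0794). Between 8 and 10 members were called when 1 animal was left out, 5 without animals 1 and 2 together and 7 without animals 2 and 4 together.

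None of 13 genes of autonomic neurons passed the test, with a median log2 difference of -0.07. ELAVL4, NEFL, NEFM and CHRNB4 were listed at 0 in all BSAT libraries. Among 42 axon guidance genes, 5 (11.9%) were higher in PCAT, against 3.37% of all gene models, and none was higher in BSAT. Without animals 2 and 4 together 1 was higher in PCAT. ROBO2, a receptor for SLIT ligands, had 14.3 to 48.6 FPKM in BSAT (median 31.7) and 149.8 to 356 FPKM in PCAT (median 249) (log2 difference -2.97 ± 0.22 SE, adjusted p = 0.000714), without overlap. SLIT2, one of its ligands, had 4.88 ± 2.15 FPKM in BSAT and 14.6 ± 7.06 FPKM in PCAT (log2 difference -1.53 ± 0.27 SE, adjusted p = 0.0233), but missed the threshold without animal 1, 3 or 5 (adjusted p = 0.0517 to 0.0761). UNC5D, a netrin receptor, and EPHA7, an ephrin receptor, differed by -2.06 and -2.0 (adjusted p = 0.00557 and 0.0122). PLXND1, a semaphorin receptor, differed by -0.50 and missed the threshold without animal 1, 2, 3, 5 or 6 (adjusted p = 0.0659 to 0.112).

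Mesothelial genes were called in 5 of 20 cases, all higher in PCAT, against 3.37% of all gene models. Their median log2 difference was -2.89, the lowest of the 52 lists, and their level was highest in PCAT 2 and PCAT 4. The sum of 21 genes was 364 to 702 FPKM in BSAT and 237 to 4492 FPKM in PCAT. KRT8, a keratin of simple epithelia, had 1302 and 1994 FPKM in PCAT 2 and PCAT 4, 3.57 to 56.3 FPKM in the other PCAT libraries and 0.784 to 4.13 FPKM in BSAT, and did not pass (adjusted p = 0.0523). MUC16, a surface mucin of mesothelium, had 71.4 and 50.8 FPKM in PCAT 2 and PCAT 4 and 0 to 5.48 FPKM in the other PCAT libraries, against at most 0.0166 FPKM in BSAT (adjusted p = 0.0426). CALB2, the calcium binding protein calretinin, and BNC1 were listed at 0 in every BSAT library, as was UPK1B. PCAT 5 was listed at 0 for MUC16 and BNC1. CALB2 missed the threshold without animal 1 or 2 (adjusted p = 0.0533 to 0.0720) and MUC16 without animal 1, 2, 3, 4 or 6 (adjusted p = 0.0794 to 0.114). Members called numbered 0 without animal 1 or without animal 2, 7 higher in PCAT without animal 5, and 1 without animals 2 and 4 together. ALDH1A2, the retinaldehyde dehydrogenase that makes retinoic acid and is known from epicardium and mesothelium, followed the same libraries, with 55.1 and 88.6 FPKM in PCAT 2 and PCAT 4, but was higher than BSAT in all 6 PCAT libraries (0.422 to 1.01 FPKM in BSAT (median 0.551) and 6.29 to 88.6 FPKM in PCAT (median 15.7), log2 difference -4.83 ± 0.56 SE, adjusted p = 0.00449). The part of mesothelial tissue in the other genes higher in PCAT was not tested.

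Heart muscle genes were called in 2 of 7 cases tested, both higher in PCAT, against 3.37% of all gene models. RYR2, the calcium release channel of heart muscle, had 31.7 to 57.1 FPKM in BSAT (median 44.4) and 60.8 to 210.2 FPKM in PCAT (median 127) (log2 difference -1.5 ± 0.20 SE, adjusted p = 0.00869), and MYH7, a slow and cardiac myosin, had 0.348 ± 0.233 FPKM in BSAT and 1.91 ± 1.24 FPKM in PCAT (log2 difference -2.21 ± 0.32 SE, adjusted p = 0.0117). The summed heart muscle list was 34.3 to 93.3 FPKM in BSAT and 68.8 to 216 FPKM in PCAT, with overlap, and TECRL was listed at 0 in all PCAT libraries. Without animals 2 and 4 together 1 of these genes was called, and none was without animals 1 and 2 together. RYR2, which made up most of this sum in PCAT, averaged 130.1 ± 50.7 FPKM in PCAT, 149.8 ± 115 FPKM in OAT and 123 ± 127 FPKM in PRAT, and PCAT did not differ past the threshold from the other two (limma adjusted p = 0.610). No skeletal muscle gene of 21 tested was called, with a median log2 difference of 1.09, and without animal 1 there was 1 call, higher in PCAT. TTN, the giant sarcomere protein, had 1309 FPKM in BSAT 1 and 18.1 to 66.2 FPKM in the other BSAT libraries, against 13 to 30.3 FPKM in PCAT.

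**Figure D4:**
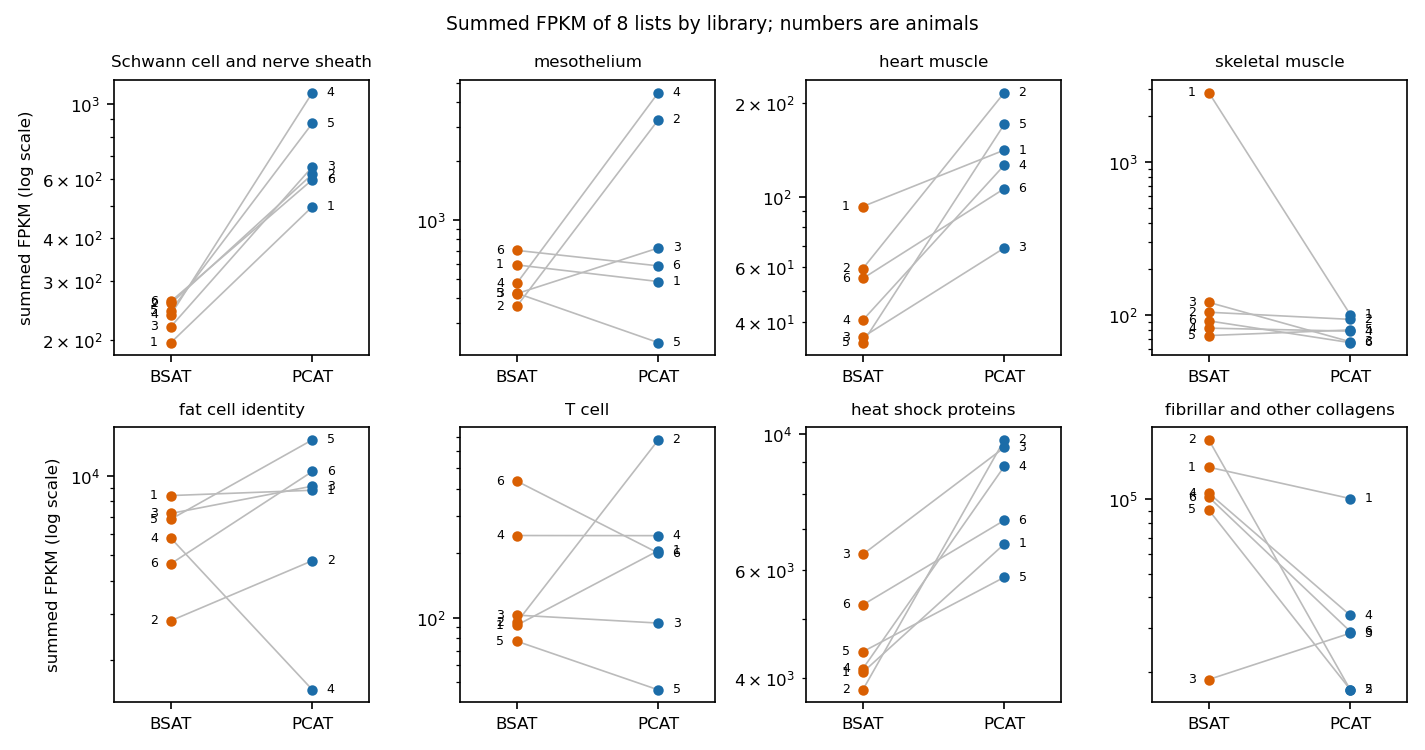
Summed FPKM of 8 gene lists (log scale on each y axis) in BSAT (orange) and PCAT (blue) libraries, with a line joining the libraries of each animal and the animal's number beside each point. The Schwann cell list separated the depots in all 6 animals, the mesothelial sum was high in PCAT 2 and PCAT 4, the skeletal muscle sum in BSAT 1, and the collagen sum of BSAT 3 was under those of the other 5 BSAT libraries.

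No gene of the lists for T cells (23 tested), cytotoxic cells (13), B cells (13) or macrophages (20) passed the test. The T cell sum was 77.5 to 435 FPKM in BSAT and 45.9 to 679 FPKM in PCAT, highest in PCAT 2. Of the thymus list, FOXN1, PRSS16, PSMB11, RAG1 and DNTT were listed at 0 in all 12 libraries. Of 7 genes of lymphatic endothelium tested, 1 (14.3%) was higher in PCAT, against 3.37% of all gene models. It was RELN, an extracellular protein made by lymphatic endothelium (35.7 ± 42.7 FPKM in BSAT and 95.4 ± 44.6 FPKM in PCAT, log2 difference -2.07 ± 0.36 SE, adjusted p = 0.0218). RELN missed the threshold without animal 1, 2, 3 or 4 (adjusted p = 0.0514 to 0.0788). Members of this list ranged from -2.07 to 1.22 in log2 difference (median -0.52). Their summed FPKM overlapped, at 39.7 to 260 in BSAT and 113 to 247 in PCAT.

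Few genes of lipid handling passed the test. None of 25 genes of triglyceride assembly, 27 of lipolysis, 27 of the citrate cycle or 60 of the respiratory chain passed the test, and their median log2 differences were -0.09, 0.37, -0.18 and -0.12. Single genes ranged from -1.56 to 0.77 in triglyceride assembly and from -1.19 to 2.0 in lipolysis. The summed triglyceride assembly list was 1849 to 5330 FPKM in BSAT (median 4175) and 1272 to 11729 FPKM in PCAT (median 7847), and was higher in PCAT in 5 of 6 animals, animal 4 being the exception. Animal 4, whose PCAT library had the lowest sum of fat cell genes, weighed on these lists. Without it 5 genes of triglyceride assembly and 5 of fat cell identity were higher in PCAT, against 550 of all 17688 gene models. ADIPOQ (log2 difference -1.43, adjusted p = 0.0431) and GPD1, an enzyme of glycerol phosphate supply (-1.59, adjusted p = 0.0276), then passed. When any other single animal was left out, at most 1 gene of each list was higher in PCAT. Without animal 3, 1 gene of fat cell identity was higher in BSAT. Of 33 genes of fatty acid oxidation, CPT1B alone was called, higher in PCAT (3.03%, near the 3.37% of all gene models). CPT1B, which carries fatty acids into mitochondria, had 8.98 ± 1.91 FPKM in BSAT and 16.7 ± 4.46 FPKM in PCAT (log2 difference -0.87 ± 0.14 SE, adjusted p = 0.0148), and missed the threshold without animal 1 or 2 (adjusted p = 0.0514 to 0.0594). Of 21 genes of fatty acid synthesis, ACACB alone was called, higher in BSAT (4.76%, against 1.83% of all gene models). ACACB had 2.24 ± 1.61 FPKM in BSAT and 0.774 ± 0.307 FPKM in PCAT (log2 difference 1.25 ± 0.25 SE, adjusted p = 0.0340), and missed the threshold without animal 1, 2, 3, 5 or 6 (adjusted p = 0.0644 to 0.0915). Of 18 genes of desaturation and elongation, 3 (16.7%) were higher in PCAT, against 3.37% of all gene models. FADS2, FADS3 and ELOVL2 differed by -1.02, -0.64 and -0.94, and each lost its call without at least 4 of the animals in turn. HK2 and PFKP, enzymes of glucose breakdown, were called in opposite directions (-1.44 and 0.97) and were each lost without 5 of the animals in turn. Of 10 genes of metabolism, matrix and thermogenesis that the study names, 8 did not pass. They were LDHB, GPD1, HADHA, HSPD1, LIPE, VCAN, FMOD and TMEM26, with log2 differences of -0.95 to 0.69 and adjusted p of 0.0528 to 0.904, and without animal 4 the chaperonin HSPD1 also passed (log2 difference -0.73, adjusted p = 0.0276). The study described VCAN and FMOD as high in SSAT, and LDHB, GPD1, HADHA, HSPD1 and LIPE as highest in PRAT. It did not name these genes for a difference between BSAT and PCAT.

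The other 2 of these 10, UCP1 and PRDM16, belonged to thermogenic and beige fat. In that list 5 of 24 genes were higher in PCAT, against 3.37% of all gene models, and none was higher in BSAT. Leaving out 1 animal left 1 to 5 of these calls. PRDM16, a factor that keeps the brown fat program, had 5.27 to 8.68 FPKM in BSAT (median 6.56) and 14 to 23.2 FPKM in PCAT (median 17.3) (log2 difference -1.43 ± 0.18 SE, adjusted p = 0.00599), without overlap. UCP1, the uncoupling protein of brown fat, was low throughout, with 0.00374 to 0.0731 FPKM in BSAT (median 0.0246) and 0.0183 to 1.000 FPKM in PCAT (median 0.382). It passed at an adjusted p of 0.0274 but was lost without animal 1, 2, 3, 5 or 6 (adjusted p = 0.0564 to 0.0859), and PCAT 4 lay within the BSAT range. EBF2 and CPT1B were described above, and EPSTI1 differed by -0.83 and was lost without animal 1, 2, 4, 5 or 6 (adjusted p = 0.0546 to 0.131). Summed FPKM of the 20 fat cell identity genes overlapped, at 2820 to 8422 in BSAT and 1540 to 13719 in PCAT, and none of 19 tested was called.

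In the extracellular matrix the chains of type I collagen were not called, and some less abundant chains were. COL1A1, the main chain of type I collagen, had 5252 to 83885 FPKM in BSAT (median 45216) and 1064 to 41682 FPKM in PCAT (median 5397), and COL1A2, its partner, had 2734 to 43918 FPKM in BSAT (median 25083) and 907 to 21729 FPKM in PCAT (median 3255). The groups overlapped through BSAT 3 and PCAT 1, and neither passed (adjusted p = 0.0854 and 0.0945). Of 36 collagen genes tested, 2 (5.56%) were higher in BSAT and 5 (13.9%) higher in PCAT, against 1.83% and 3.37% of all gene models, with a median log2 difference of 0.34. COL12A1, which lies along type I fibrils, had 26.7 to 90.2 FPKM in BSAT (median 50) and 8.02 to 17.8 FPKM in PCAT (median 12.7) (log2 difference 2.06 ± 0.29 SE, adjusted p = 0.0103), without overlap. COL4A4, a basement membrane chain, differed by 1.46 and was lost without animal 1, 4, 5 or 6 (adjusted p = 0.0589 to 0.0890). Among the 5 higher in PCAT, COL8A1, a short chain collagen of vessels, had 70.4 ± 24 FPKM in BSAT and 213 ± 71.8 FPKM in PCAT (log2 difference -1.59 ± 0.27 SE, adjusted p = 0.0213), and COL7A1 and COL4A5 differed by -0.85 and -1.81. COL8A1 was lost without animal 1, 2, 5 or 6 (adjusted p = 0.0547 to 0.0711), COL7A1 without animal 1 or 2 (adjusted p = 0.0524 to 0.0568) and COL4A5 without animal 1, 2 or 3 (adjusted p = 0.0569 to 0.0877), and without animals 2 and 4 together no collagen was higher in PCAT, as was the case without animal 1 or without animal 2.

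DPT, dermatopontin, which binds collagen and decorin, had 40.5 to 98.4 FPKM in BSAT (median 71.8) and 172 to 368 FPKM in PCAT (median 304) (log2 difference -1.92 ± 0.21 SE, adjusted p = 0.00356), and NPNT, nephronectin, 17.3 ± 5.06 FPKM in BSAT and 44.9 ± 26.8 FPKM in PCAT (log2 difference -1.23 ± 0.18 SE, adjusted p = 0.0113). Both were past the threshold without any 1 animal. In the list of elastic fibres and glycoproteins, 5 of 40 (12.5%) were higher in PCAT, against 3.37% of all gene models. Without animals 2 and 4 together 1 was, and without animals 1 and 2 together none was. MATN2 alone was higher in BSAT (2.5%, near the 1.83% of all gene models). TNC, tenascin C, had 3.58 ± 3.88 FPKM in BSAT and 23.2 ± 15.3 FPKM in PCAT (log2 difference -2.91 ± 0.53 SE, adjusted p = 0.0264) and was lost without animal 1, 2, 3 or 4 (adjusted p = 0.0532 to 0.0859), SMOC2 was lost without animal 1, 2, 4 or 6 (adjusted p = 0.0546 to 0.0743), and MATN2, matrilin 2 (0.65), without animal 1, 2, 5 or 6 (adjusted p = 0.0565 to 0.0765). P4HA1, a prolyl hydroxylase that collagen folding needs, had 31.8 to 39.0 FPKM in BSAT (median 35.0) and 60.8 to 99.3 FPKM in PCAT (median 81.8) (log2 difference -1.20 ± 0.11 SE, adjusted p = 0.00193), without overlap, whereas its relative P4HA3 ran the other way at 1.51 ± 0.325 FPKM in BSAT and 0.731 ± 0.239 FPKM in PCAT (log2 difference 0.99 ± 0.17 SE, adjusted p = 0.0223). PLOD1, a lysyl hydroxylase, was higher in PCAT by -0.73. P4HA3 was lost without animal 1, 2 or 6 (adjusted p = 0.0616 to 0.0834) and PLOD1 without animal 1 or 2 (adjusted p = 0.0521 to 0.0524). Among proteoglycans, BGN (biglycan) and PRG4 (lubricin) were higher in PCAT and HAPLN3, a link protein, in BSAT, by -1.02, -3.32 and 0.86. BGN was lost without animal 1, 2, 5 or 6 (adjusted p = 0.0636 to 0.124), PRG4 without animal 1, 2, 3, 4 or 5 (adjusted p = 0.0545 to 0.0950) and HAPLN3 without animal 1, 2, 3, 5 or 6 (adjusted p = 0.0684 to 0.118).

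WNT signalling genes moved in both directions, with 6 of 48 higher in BSAT and 5 higher in PCAT, against 1.83% and 3.37% of all gene models, and a median log2 difference of -0.11. WNT2 had 22.9 to 186 FPKM in BSAT (median 83.8) and 8.33 to 21.1 FPKM in PCAT (median 13.6) (log2 difference 2.62 ± 0.36 SE, adjusted p = 0.00935) and WNT4 had 1.74 to 7.51 FPKM in BSAT (median 3.85) and 0.831 to 2.01 FPKM in PCAT (median 1.32) (log2 difference 1.42 ± 0.15 SE, adjusted p = 0.00356). WNT2 did not overlap and WNT4 did. RSPO3, a secreted enhancer, and SFRP2, a secreted antagonist, differed by 2.15 and 1.66. LGR5, a receptor for R-spondins, was also higher in BSAT at a low level, with 0.180 ± 0.0683 FPKM in BSAT and 0.0525 ± 0.00974 FPKM in PCAT (log2 difference 0.84 ± 0.19 SE, adjusted p = 0.0487), and missed the threshold without animal 1, 2, 4, 5 or 6 (adjusted p = 0.0801 to 0.135). ROR1, a receptor of the WNT5A type ligands, had 15.3 to 29.8 FPKM in BSAT (median 18.5) and 35.7 to 63.9 FPKM in PCAT (median 54.0) (log2 difference -1.38 ± 0.17 SE, adjusted p = 0.00545), and LGR4, a relative of LGR5, had 5.97 to 9.61 FPKM in BSAT (median 6.87) and 12.1 to 20.3 FPKM in PCAT (median 16) (log2 difference -1.12 ± 0.13 SE, adjusted p = 0.00518), both without overlap. FZD10, a frizzled receptor, and DKK3 differed by -2.73 and -1.48. RSPO3 was lost without animal 2, 5 or 6 (adjusted p = 0.0650 to 0.0743), SFRP2 without animal 2, 3, 5 or 6 (adjusted p = 0.0672 to 0.109) and DKK3 without animal 1 (adjusted p = 0.0530). Leaving out 1 animal left 2 to 5 calls higher in BSAT and 3 to 5 higher in PCAT. Leaving out animals 2 and 4 together left 1 and 3, and leaving out animals 1 and 2 together left 1 and 0.

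In the BMP and TGF-beta pathway 1 gene of 45 (2.22%) was called in each direction, shares near the 1.83% and 3.37% of all gene models. BMP5, a ligand, had 6.42 to 9.28 FPKM in BSAT (median 7.22) and 1.17 to 2.59 FPKM in PCAT (median 1.65) (log2 difference 2.08 ± 0.17 SE, adjusted p = 0.00104). BMPER, a secreted protein that binds BMPs, had 0 to 0.236 FPKM in BSAT (median 0.0770) and 1.67 to 9.47 FPKM in PCAT (median 5.19) (log2 difference -4.73 ± 0.53 SE, adjusted p = 0.00400). Neither overlapped.

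In the IGF system, 1 of 16 genes was higher in BSAT and 3 were higher in PCAT, against 1.83% and 3.37% of all gene models. IGFBP3, a carrier protein of IGFs, had 137 to 290.1 FPKM in BSAT (median 181) and 32.8 to 119.5 FPKM in PCAT (median 58.9) (log2 difference 1.69 ± 0.24 SE, adjusted p = 0.00996). IGF1, the growth factor, had 31.0 to 109 FPKM in BSAT (median 74.6) and 158 to 637 FPKM in PCAT (median 238) (log2 difference -2.0 ± 0.32 SE, adjusted p = 0.0163), and PAPPA, a protease that releases IGF from its binding proteins, had 0.982 ± 0.437 FPKM in BSAT and 4.57 ± 1.31 FPKM in PCAT (log2 difference -2.15 ± 0.24 SE, adjusted p = 0.00405). The depots did not overlap for any of these 3 genes. IGF1 was lost without animal 1, 2 or 6 (adjusted p = 0.0569 to 0.0623), and IGFBP7 (-0.50) when any animal was left out (adjusted p = 0.0651 to 0.127). Of 15 FGF system genes, 2 (13.3%) were higher in PCAT, against 3.37% of all gene models. FGF10, a ligand of mesenchyme, had 0.174 to 0.986 FPKM in BSAT (median 0.707) and 1.85 to 6.25 FPKM in PCAT (median 4.01) (log2 difference -2.52 ± 0.25 SE, adjusted p = 0.00234). FGFR2, which encodes its receptor, had 1.99 ± 0.698 FPKM in BSAT and 5.77 ± 2.02 FPKM in PCAT (log2 difference -1.5 ± 0.23 SE, adjusted p = 0.0132). Of 19 genes of retinoid handling, 2 (10.5%) were higher in PCAT, ALDH1A2 among them, against 3.37% of all gene models, and none was higher in BSAT. C7, a late complement component, was the only call of 25 complement genes (4%, near the 3.37% of all gene models higher in PCAT). C7 had 116 to 357 FPKM in BSAT (median 229.8) and 566 to 2031 FPKM in PCAT (median 1140) (log2 difference -2.40 ± 0.36 SE, adjusted p = 0.0122), and did not overlap.

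Heat shock genes were higher in PCAT in 8 of 25 cases, against 3.37% of all gene models, with none higher in BSAT and a median log2 difference of -0.61. CRYAB, a small heat shock protein, had 0.549 to 2.15 FPKM in BSAT (median 1.22) and 4.28 to 5.41 FPKM in PCAT (median 5.03) (log2 difference -2.05 ± 0.24 SE, adjusted p = 0.00440), without overlap. DNAJB1, a partner of HSP70, had 4.86 to 16.4 FPKM in BSAT (median 5.14) and 10.1 to 45.6 FPKM in PCAT (median 37.6) (log2 difference -2.18 ± 0.30 SE, adjusted p = 0.00943), and PCAT 5 fell under BSAT 3. HSPA1A and HSPA1B, the inducible HSP70 genes, had 34.1 ± 13.9 FPKM in BSAT and 272 ± 153 FPKM in PCAT and 12.7 ± 6.22 FPKM in BSAT and 108 ± 53.5 FPKM in PCAT. They are near-identical copies, so the split of reads between them is uncertain, and both were lost without animal 1 or 6 (adjusted p = 0.0503 to 0.0582). HSPB1 had 202 ± 62.2 FPKM in BSAT and 335 ± 50.6 FPKM in PCAT (log2 difference -0.76 ± 0.12 SE, adjusted p = 0.0140) and was lost without animal 1 or 2 (adjusted p = 0.0521 to 0.0571). Between 2 and 8 members were called when 1 animal was left out, 1 without animals 1 and 2 together and 2 without animals 2 and 4 together. None of 28 immediate early genes passed, with a median log2 difference of 0.54, and their sum was highest in BSAT 3 (28990 FPKM, the other BSAT libraries 5759 to 12505 FPKM, PCAT 4094 to 12097 FPKM). Without animal 4, 7 of them were higher in BSAT, against 287 of all 17688 gene models. None was higher in BSAT when any other single animal was left out, and without animal 3, 1 was higher in PCAT.

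The same genes were followed in the other 4 depots. Contrasts of PCAT against the mean of OAT and PRAT and of BSAT against the mean of SSAT and IAT were fitted over all 36 libraries with the animal as a block. They share libraries with the comparison above, so their values are set side by side only. PCAT differed from the other visceral depots in 1042 gene models (5.89%, 602 higher in PCAT, 3.4%, and 440 lower in PCAT, 2.49%), whereas BSAT differed from the other subcutaneous depots in 12 (0.0678%, 2 higher in BSAT, 0.0113%, and 10 lower in BSAT, 0.0565%). Of the 23 HOX genes, 21 were lower in PCAT than in OAT and PRAT, against 2.49% of all gene models, and 1 (HOXC4) was lower in BSAT than in SSAT and IAT. HOXC6 averaged 0.123 ± 0.221 FPKM in PCAT, 7.55 ± 4.49 FPKM in OAT and 20.3 ± 8.08 FPKM in PRAT, and HOXA9 averaged 0.0813 ± 0.0440 FPKM in PCAT, 0.0791 ± 0.120 FPKM in OAT and 3.55 ± 1.14 FPKM in PRAT. AGTR1 averaged 0.792 ± 0.343 FPKM in PCAT and between 4.86 and 10.4 FPKM in each of the other 5 depots, and was lower in PCAT than in OAT and PRAT (log2 difference -2.44, adjusted p = 0.000126). SHOX2 and EMX2 were low in all 3 visceral depots, at 6.10 to 6.97 FPKM and 1.73 to 4.03 FPKM.

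Genes higher in PCAT than in BSAT differed in their levels in the other visceral depots. GATA4 averaged 8.88 ± 1.98 FPKM in PCAT, 0.0475 ± 0.0747 FPKM in OAT and 0.0332 ± 0.0562 FPKM in PRAT, and was listed at 0 in all SAT libraries. TCF21 averaged 14.9 ± 5.36 FPKM in PCAT, 3.61 ± 1.33 FPKM in OAT and 1.13 ± 1.21 FPKM in PRAT, and TBX5 was low in both OAT (0.405 ± 0.429 FPKM) and PRAT (0.847 ± 0.667 FPKM). TBX15, although higher in BSAT than in PCAT, averaged 28.1 ± 6.00 FPKM in PCAT against 0.966 ± 0.727 FPKM in OAT and 1.65 ± 1.14 FPKM in PRAT, so PCAT stood between the SAT depots and the other VAT depots. DLK1 was high in OAT (55.0 ± 27.2 FPKM) and PRAT (43.2 ± 31.0 FPKM) as well as in PCAT (108 ± 81.4 FPKM), and PCAT did not differ past the threshold from them (adjusted p = 0.301). Of all 18 Schwann cell genes tested, 8 were higher in PCAT than in OAT and PRAT, and of all 25 heat shock genes 2 were, against 3.4% of all gene models, with the same PCAT libraries entering both comparisons. SOX10 averaged 23.8 ± 9.92 FPKM in PCAT, 5.51 ± 5.03 FPKM in OAT and 9.68 ± 5.48 FPKM in PRAT.

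**Figure D5:**
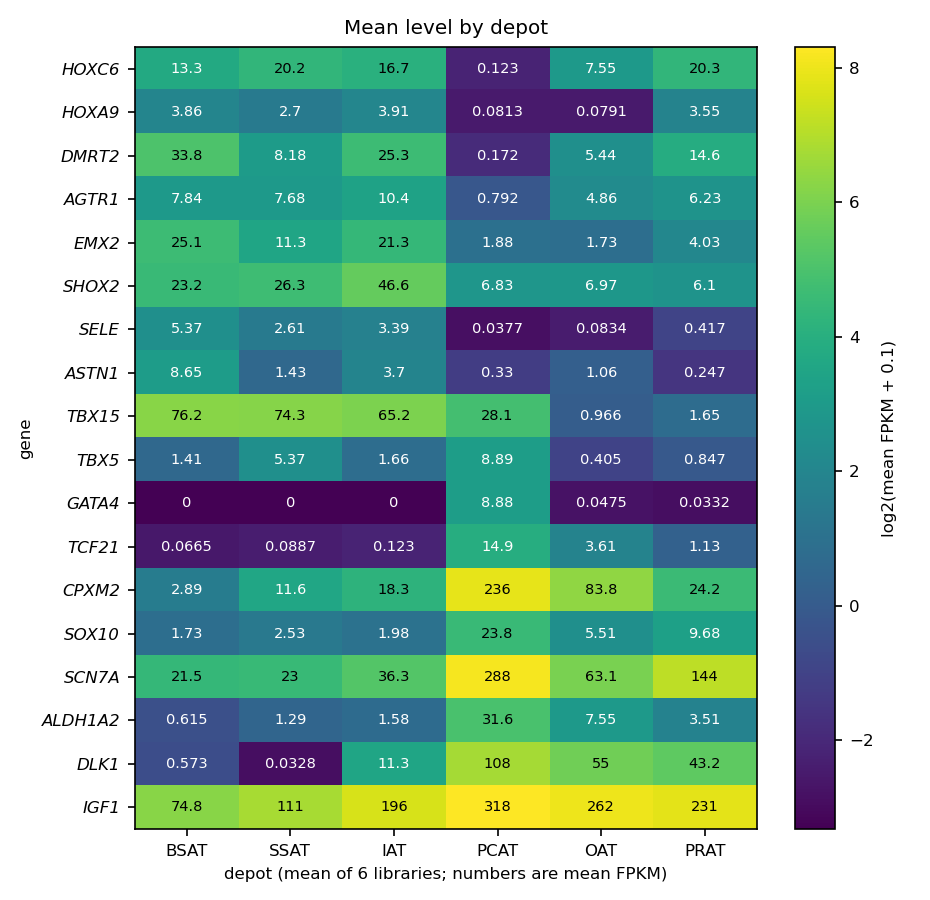
Mean FPKM of 18 genes (rows) in the 6 depots (columns, 6 libraries each), with colour for log2(mean FPKM + 0.1) and the mean printed in each cell. GATA4 was near 0 outside PCAT, HOXC6 was near 0 in PCAT alone, and TBX15 was higher in PCAT than in OAT and PRAT.

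The depot difference itself was compared between the sexes. No gene model passed the limma test of male minus female differences (0 of 17688, lowest adjusted p = 0.575), and 1054 had an unadjusted p under 0.05. Without animal 6 there was 1 call. Each sex had 3 animals. The number of gene models above 0.1 FPKM did not separate the depots either, with a mean difference BSAT minus PCAT of -45.2 ± 252 (SD over 6 animals, exact two-sided sign-flip permutation p = 0.719, where the smallest p possible is 0.0312).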

How the data were processed

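Total RNA of each depot was used for RNA sequencing. The study's methods describe libraries depleted of ribosomal RNA, whereas the labels name a TruSeq RNA kit, so the selection of RNA behind the values is not settled. The authors deposited FPKM per gene model for 36 libraries. The submitters' processing notes name Fastp, HISAT2 2.2.1 and StringTie 2.1.4. The study aligned reads to a buffalo genome of its own. The table held 23032 gene models, 6773 without a symbol. For 1238 symbols with more than 1 model the model of highest mean was described, and 113 tested models shared their values with another. Depth is unknown from FPKM, so no counting interval is given.

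FPKM were converted to log2(FPKM + 0.1) for the 17688 models averaging above 0.1 FPKM over the 36 libraries, and BSAT was compared with PCAT in limma 3.58.1 (R 4.3.3) with the animal as a block, trended empirical Bayes variances (5 residual and 2.367 prior degrees of freedom) and Benjamini-Hochberg adjustment over all models, at 0.05. The sex difference came from a separate limma fit to the BSAT minus PCAT difference of each animal, with a term for sex. A fit over all libraries gave the other depots. Pairs are libraries of the same animal. Their deviations from the depot means correlated at -0.08 to 0.35 (mean 0.19), against a mean of -0.04 between animals. No libraries were copies (highest correlation 0.982). The replicates are separate animals. Scripts were tested on simulated data with the means and residual spread of these libraries. The limma test recovered 44% of log2 changes of 1 and 82% of log2 changes of 2. A gene that did not pass may therefore still differ by such amounts.

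Members and lists were chosen with earlier results of these data known. Named are the 15 largest rises and 15 largest falls with 1 sign in 6 animals and an average of at least 1 FPKM, up to 4 called members of each list in each direction by moderated t, up to 4 abundant members of cell type lists, all HOX genes and the genes the study names. EN1, SHOX2, IRX2, EBF3, BNC1, SMARCD3, FOXD3, L1CAM, ERBB3, GFRA3, PLXND1, PLIN4, FABP4, EPSTI1, COL1A1, COL1A2, HSPA1A, AGTR1, LGR5 and ZFHX4 were named after their values were seen. Some genes the rule names are not reported here. Alternatives changed the pseudocount, filter, scaling, block, libraries fitted, variance trend and threshold, and left out animals.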

Additional observations from a re-analysis of the deposited data

Results flagged for a closer look

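In 15 gene and depot combinations and 3 list sums, 1 library lay far from the other 5 of its depot (Dixon's test for 6 samples at 95%). Chance flags about 1 in 20 groups, and 286 gene groups and 36 list groups were tested. BSAT 3 stood apart upward for SELE (8.56 FPKM), EPHA7 (1.81 FPKM), HSPB1 (323 FPKM) and the endothelial sum (11203 FPKM), and downward for COL1A1 (5252 FPKM), COL1A2 (2734 FPKM) and the glycolytic enzyme HK2 (9.92 FPKM). PCAT 4 stood apart downward for the fat cell genes ADIPOQ (47.2 FPKM), PLIN4 (4.49 FPKM), GPD1 (110.2 FPKM) and LIPE (27.5 FPKM), and upward for TMEM26 (101 FPKM) and DKK3 (7.77 FPKM). BSAT 1 stood apart upward for TTN (1309 FPKM) and the skeletal muscle sum (2852 FPKM), and downward for the autonomic neuron sum (26.4 FPKM). BSAT 4 was high for CPXM2 (8.57 FPKM) and PCAT 5 was low for DNAJB1 (10.1 FPKM). SELE, EPHA7, CPXM2 and DNAJB1 were past the threshold without each single animal, and DKK3, HK2 and HSPB1 were not.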

How the results depend on the processing

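Of 126 called genes followed, 72 were past the threshold without each single animal, and no called gene changed direction under the alternatives run for it. There were 18 alternatives, but the limit of 10 FPKM could be run for only 73 of the 151 genes followed. Of the 30 largest rises and falls, 18 passed under every alternative run for them, and 21 of the 30 were not run at the limit of 10 FPKM. When 1 animal was left out, gene models higher in BSAT numbered 139 to 354 and higher in PCAT 264 to 647, HOX genes higher in BSAT 17 to 21, and list genes 31 to 67 higher in BSAT and 40 to 86 higher in PCAT. The sex comparison then gave 0 to 1 calls, and the difference in the number of models above 0.1 FPKM was -100.8 to 33. Without animals 1 and 2 together, 31 models were higher in BSAT and 64 in PCAT, with 9 HOX genes and 13 and 15 list genes. Without animals 2 and 4 together, an alternative chosen after seeing the data, these were 105 and 240, 12, and 20 and 38. Among models averaging at least 10 FPKM they were 92 and 153, 4, and 16 and 36, with fewer models tested. The fit to all 36 libraries called 974 models higher in PCAT, and the study's threshold (unadjusted p under 0.05 and a log2 difference of 1.5) 384.

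Without the animal block, 353 models were higher in BSAT and 755 in PCAT, 22 HOX genes were higher in BSAT, 247 were lower in PCAT than in OAT and PRAT and 5 lower in BSAT than in SSAT and IAT. Models higher in BSAT than in SSAT and IAT numbered 4 with log2(FPKM + 1), 1 on the TPM scale and 1 after quantile normalization. Uncalled genes changed sign for LIPE (-0.057 to 0.93 when 1 animal was left out) and LDHB (-0.085 to 0.26, and -0.00179 on the TPM scale, -0.063 without animals 1 and 2 and -0.11 without animals 2 and 4). The causes were not tested. The 6 animals limit the precision, and the unknown depth limits what can be said of low genes.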
